A study of Arabidopsis thaliana with 6 samples.

Results

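Gene expression in Arabidopsis thaliana seedlings given indole-3-acetic acid (IAA) at 1 nM was compared with that in control seedlings, using 2 RNA-seq libraries from each treatment. These 4 libraries were taken from a series of 6 by their titles and column names, and every gene that passed a filter on low counts was tested, which was 21267 of the 27978 rows of the count table. The other 2 libraries, from seedlings given melatonin (MT) at 10 nM, entered the same statistical fit and are used to ask which differences set IAA apart from MT. The genes that fell with IAA and the cell division, jasmonate and myrosinase genes are described in most detail. These groups and the other gene lists were chosen with earlier results of these data in view.

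All 6 libraries came from wild-type plants of the Columbia accession, grown on agar plates of Murashige and Skoog medium with sucrose. Seedlings aged 4 days were moved to plates with IAA or MT, both made up from ethanol stocks. Control plates held ethanol at 0.1%, although the control label for treatment time speaks of no treatment. The titles place every library at 7 days of treatment, but the names of the control columns in the count table say 72 h, so the treatment time of the control seedlings is uncertain in every comparison against control. The final ethanol level on the IAA and MT plates is not given. Seedlings are given as the tissue in the sample labels, but the design text says that rosette leaves were collected. The series title states its question as whether melatonin promotes root growth by way of IAA.

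IAA is the main natural auxin. Auxin binds receptors that tag Aux/IAA repressor proteins for breakdown, which frees auxin response factors to activate their targets, and it acts on cell expansion and on cell division in meristems. Cells divide when cyclins bind and activate cyclin-dependent kinases (CDKs); B-type cyclins, made around mitosis, are among the genes switched on by MYB3R transcription factors through a promoter element called the mitosis-specific activator. Jasmonate is a wound and defence hormone made from plastid lipids: it triggers breakdown of JAZ repressors, which frees MYC2 and its relatives. Myrosinases are thioglucosidases that split glucosinolates, the sulphur-rich defence compounds of the cabbage family, when tissue is damaged.

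Total counts were 65558371 and 44424733 in the IAA libraries, 48655999 and 40087221 in the MT libraries, and 52929788 and 47351249 in the control libraries. A count of 3 is worth 0.0458 to 0.0748 counts per 1000000 (CPM) of the library total, and this covers counting error only. The CPM values of genes are scaled by library size and normalisation factor. The labels do not say whether replicates were separate cultures; the p-values therefore reflect only the spread between these libraries, which may be technical. Libraries of 1 group differed widely. On the first principal component (38.2% of the variance) the IAA libraries lay at -1.91 and 9.09, the MT libraries at 47.66 and 13.99, and the control libraries at -47.86 and -20.97. On the second (19.5%) IAA replicate 2 lay at -40.91 and IAA replicate 1 at -4.79. MT replicate 1 also had 0.285% of its counts in plastid genes, against 0.0196% to 0.0244% in the other 5 libraries. The 10 leaf photosynthesis genes were read at 857.4 CPM or more in every library, with a median log2 fold change of 0.07 between IAA and control (-0.01 without control replicate 2 and 0.13 without control replicate 1). Root genes were read too: the 8 root hair markers summed to 16.5 and 22.5 CPM with IAA, 32.8 and 16.6 CPM with MT, and 6.17 and 12.4 CPM in control. The 8 root endodermis markers summed to 23.3 and 25.5 CPM with IAA, 49.5 and 26.4 CPM with MT, and 12.7 and 19.8 CPM in control. No marker of either list was at 0 in any library, and both sums were lower in the 2 control libraries than in the 2 IAA libraries. In whole-tissue RNA, fewer cells of a type and less RNA per cell cannot be told apart.

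With IAA, 124 genes rose and 25 fell against control (edgeR's quasi-likelihood test, Benjamini-Hochberg adjusted p under 0.05). The background is thus 0.701% of genes tested called, 0.583% higher and 0.118% lower. The rises were larger than the falls: 72 of the 124 were past 2-fold, with a median log2 fold change of 1.14, against 3 of the 25 falls, with a median of -0.56. Over all genes tested the median log2 fold change was 0.01, and 2334 genes had an unadjusted p under 0.05. The falls sat at higher levels, with a median of 56.6 CPM over the 4 libraries, against 20.4 CPM for the rises and 14.5 CPM for all genes tested. In all 149 called genes the IAA and control libraries did not overlap. Over all genes tested, IAA lay above control without overlap in 23.5% and below in 20.2%. The 149 were picked for a difference between these libraries, so nothing is read from this.

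**Figure D1:**
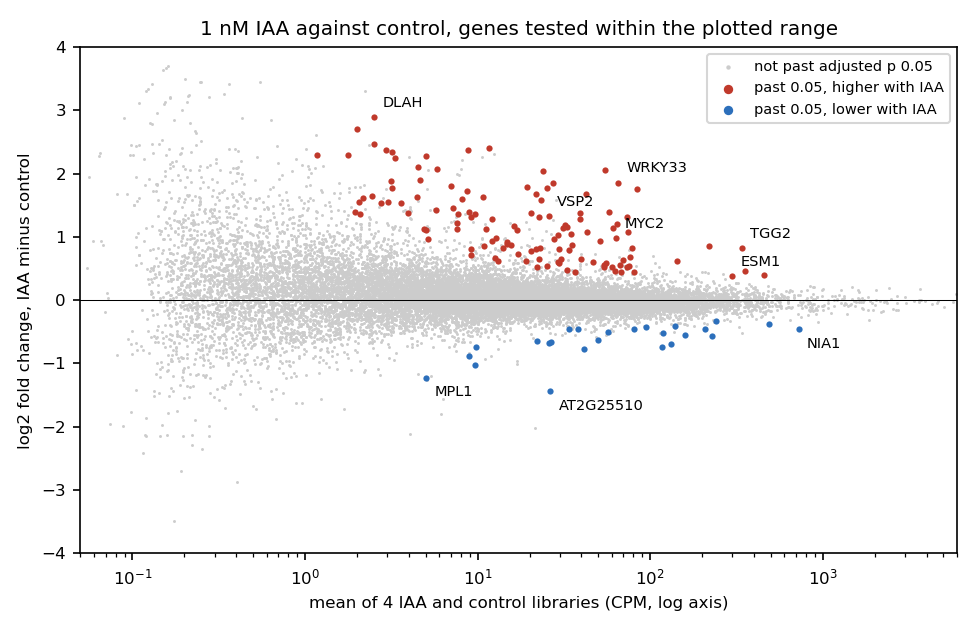
Log2 fold change of IAA minus control (vertical axis) against the mean level of the 4 IAA and control libraries in CPM (horizontal log axis), 1 point per gene within the plotted range; red points rose and blue points fell past adjusted p 0.05, grey points did not pass. The 25 falls are mostly small changes of well-read genes, and only 3 of them pass 2-fold.

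The genes that fell were mixed in kind. They include enzymes of nitrogen, carbon and lipid metabolism, several receptor-like kinases, and RING and kelch-repeat proteins of the sort that act in protein turnover. Also among them were a gene annotated to the protein kinase superfamily and genes of unknown function. AT2G25510, annotated only as an uncharacterized protein, was read at 14.4 and 14.2 CPM with IAA, 32.1 and 26.2 CPM with MT, and 48.3 and 29.0 CPM in control. It had the lowest fold change of the 25, at -1.43 ± 0.21 on the log2 scale (SE; adjusted p = 0.0294). The IAA values were close to each other and below all others, while the 2 control values lay far apart. MPL1, a lipase named for its induction by the aphid Myzus persicae, was read at 3.04 and 2.98 CPM with IAA, 5.46 and 4.09 CPM with MT, and 6.73 and 7.33 CPM in control (log2 fold change -1.22 ± 0.19 SE, adjusted p = 0.0358). AT3G18773, a RING/U-box protein, was the third past 2-fold, with 6.57 and 6.199 CPM with IAA against 13.0 and 12.8 CPM in control (-1.02 ± 0.14 SE, adjusted p = 0.024). In both genes each IAA library lay below both control libraries. In AT3G18773 the MT libraries, at 6.25 and 5.16 CPM, overlapped with those of IAA.

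Among metabolic enzymes, NIA1 (nitrate reductase 1, which turns nitrate into nitrite) was read at 625 and 598 CPM with IAA, against 880 and 796 CPM in control, a log2 fold change of -0.45 ± 0.08 (SE; adjusted p = 0.0417). ATSPS4F, a sucrose-phosphate synthase, had 181 and 171 CPM with IAA against 240.1 and 241 CPM in control (-0.45 ± 0.06 SE, adjusted p = 0.024). NCED4, a dioxygenase that cleaves carotenoids, had 428 and 418 CPM with IAA against 570 and 530.4 CPM in control (-0.38 ± 0.06 SE, adjusted p = 0.0448). These were small falls of well-read genes, and in each both IAA libraries lay below both control libraries. The MT libraries had 734.5 and 814.7 CPM for NIA1, 213 and 224 CPM for ATSPS4F, and 391 and 416 CPM for NCED4. In NCED4 both MT libraries thus lay below those of IAA. DGAT3, a diacylglycerol acyltransferase of triacylglycerol synthesis, fell by 0.41 on the log2 scale, and J8, a DnaJ-domain chaperone, by 0.33, the smallest of the 25.

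Regulators among the falls were read at a wide range of levels. MYBL2, a MYB-like repressor of anthocyanin synthesis, had 82.8 and 80.0 CPM with IAA against 107.7 and 109.7 CPM in control (log2 fold change -0.42 ± 0.06 SE, adjusted p = 0.0284). The kelch-repeat F-box gene AT1G23390 fell by 0.56 and the kelch-repeat gene AT1G80440 by 0.74 on the log2 scale. The MT libraries overlapped with those of IAA in MYBL2 (80.0 and 83.6 CPM), AT1G23390 (179 and 172 CPM) and AT1G80440 (88.7 and 71.7 CPM). OFP16, of the ovate family of growth regulators, had 17.2 and 17.4 CPM with IAA and 28.6 and 25.3 CPM in control, but 12.4 and 12.3 CPM with MT. In OFP16 the MT libraries were thus below those of IAA. The receptor kinase genes were AT4G27300 and RK2 (both S-domain) and CRK18 (cysteine-rich), with log2 fold changes of -0.52, -0.45 and -0.46. AT4G09760, annotated only to the protein kinase superfamily and so of no stated role, had -0.45. CRK18 shares 93.1% identity over 943 bases with EMB1290, and RK2, AT4G27300, AT4G09760, ATSPS4F, J8, AT3G18773 and AT5G54300 overlap a gene on the other strand, so reads of these pairs may be mixed, since strand use in counting is not given.

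A further 8 falls were MEE14, the amino acid transporter gene AT3G54830, the RING gene AT3G06145, and AT2G25200, AT2G20670, AT2G46640, AT5G54300 and AT5G25280. Those given by locus code had no other symbol in the annotation used. MEE14, named for an arrest of embryo development in mutants, had 40.02 and 37.95 CPM with IAA, 54.6 and 48.1 CPM with MT, and 58.5 and 62.3 CPM in control (log2 fold change -0.63 ± 0.08 SE, adjusted p = 0.0187). AT2G20670, annotated as a putative sugar phosphate exchanger, had 102 and 99.6 CPM with IAA, 102.5 and 85.8 CPM with MT, and 168 and 157 CPM in control (-0.69 ± 0.09 SE, adjusted p = 0.0187). In MEE14 the MT libraries lay between IAA and control, and in AT2G20670 they overlapped with IAA.

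Set against MT, the falls were of different kinds. None of the 25 differed between IAA and MT in edgeR's quasi-likelihood test, where 15 had an unadjusted p under 0.05; DESeq2 called 12, of which 11 were lower with IAA. The background of calls in that comparison is 0.0188% of genes tested. The IAA libraries lay below both MT libraries in 17 of the 25, above in 2 and overlapped in 6; over all genes tested 19.8% lay below, but the 25 were picked for low IAA values, so nothing is read from this. The mean with MT was below that of control in 24 of the 25, and at or below that with IAA in 7. IAA and MT are set against the same control libraries, so the 24 are not read as a shared response. The gene nearest to a difference from MT was AT3G62550, annotated as an adenine nucleotide alpha hydrolase-like protein. It was read at 33.0 and 28.2 CPM with IAA, 55.4 and 51.4 CPM with MT, and 54.3 and 50.6 CPM in control. Its log2 fold change was -0.77 ± 0.09 against control (SE; adjusted p = 0.0165) and -0.80 ± 0.09 against MT (adjusted p = 0.0699), with MT and control at close levels. AT3G62550 passed against MT with DESeq2 (adjusted p = 1.87e-09).

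**Figure D2:**
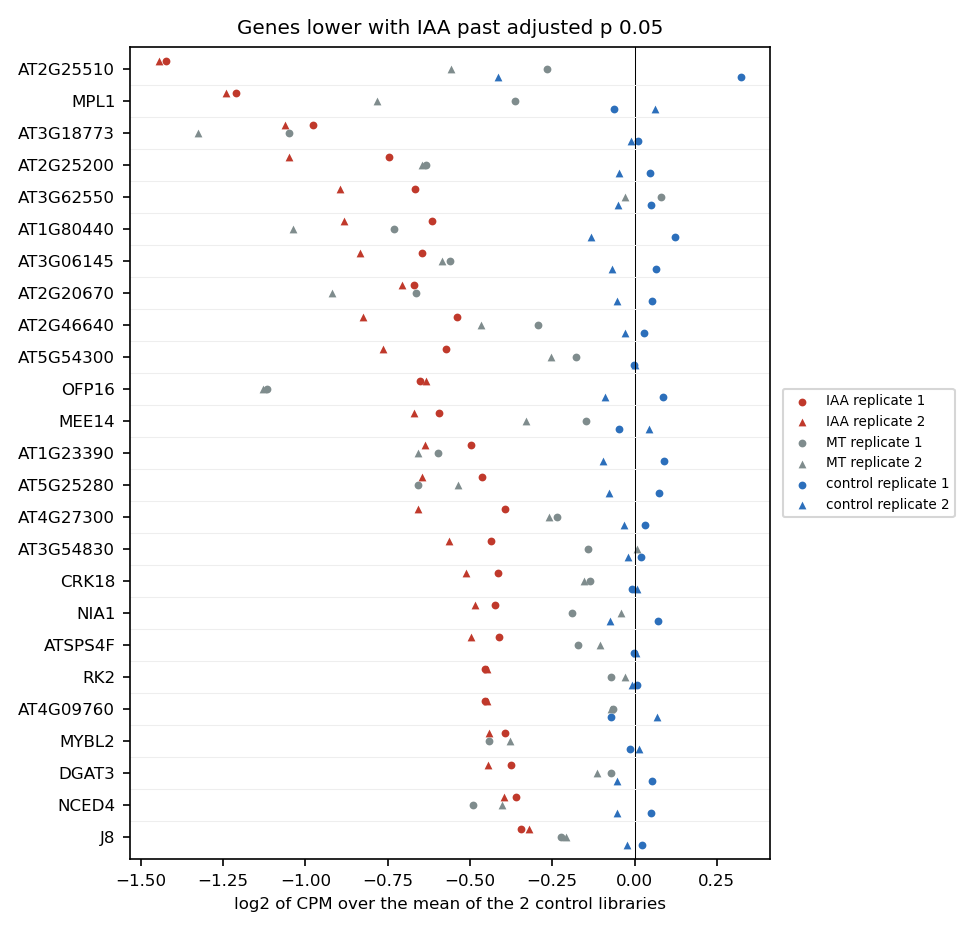
Level of the 25 genes that fell with IAA in each library, as log2 of CPM over the mean of the 2 control libraries; IAA in red, MT in grey and control in blue, with circles for replicate 1 and triangles for replicate 2. The IAA points lie left of the control points in all 25 rows, which hold genes picked for low IAA values. The MT points range from beside control (AT3G62550) to left of IAA (OFP16).

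The count of falls rests on single libraries. All 25 kept a negative fold change in each of 14 alternative settings. In all 25 both IAA libraries already lay below both control libraries, so leaving out 1 library could hardly turn the direction. Nothing is read from that. Without control replicate 1, 0 genes were called lower, although 525 had an unadjusted p under 0.05 in that direction. The count was 1 without IAA replicate 2, 7 without IAA replicate 1, 11 without control replicate 2, 16 without MT replicate 2 and 19 without MT replicate 1. DESeq2 called 148 genes lower, including all 25.

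Cell division genes had small positive differences with IAA, none of which passed the test gene by gene. All 28 tested members of the lists of mitotic cyclins with B-type CDKs and of mitosis and cytokinesis had positive log2 fold changes against control, with a median of 0.52 beside 0.01 over all genes tested, and 53.6% of all genes were positive. None of the 28 was called by edgeR's quasi-likelihood test, 18 had an unadjusted p under 0.05, and DESeq2 called 1, CDC20.1. In 25 of the 28 (89.3%) both IAA libraries lay above both control libraries, against 23.5% of all genes tested. Against MT the median was 0.49, 27 of the 28 were positive and 21 had both IAA libraries above both MT libraries (20.4% of all genes tested), again with 0 called by edgeR's test and 14 with an unadjusted p under 0.05, while DESeq2 called 3. The median of MT against the same control libraries was 0.10, beside the 0.52 of IAA. The lists were chosen with earlier results of these data known, and their members are not independent of each other. Nothing is read from these shares.

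Promoters of B-type cyclins are shown because these genes belong to the division lists and hold the core of the mitosis-specific activator. The motif searched was CNAACGG on both strands, within 250 bases before the annotated gene start in RefSeq's TAIR10.1 assembly; the build used by the authors is not given, so the stretches were taken by locus code. It was found in 7 of the 14 promoters (50%) of mitotic cyclins and B-type CDKs and in 4 of 14 (28.6%) of mitosis and cytokinesis genes, against 4.91% of the promoters of 20719 genes tested. It was in 1 of 16 DNA replication promoters, in 0 of the 25 genes that fell and in 4.88% of those that rose. At a share of 4.91%, 16 or 25 promoters are too few for a low count to be read as a lack. The 5 cyclin promoters with a match in the last 120 bases follow, read 5′ to 3′ up to the base before the gene start on the gene's own strand, with the matches in capitals (CCGTTNG is the same motif on the other strand). CYCB1;1, CYCB1;2, CYCB1;3 and CYCB2;3 are on the minus strand of chromosomes 4, 5, 3 and 1, and CYCB2;1 is on the plus strand of chromosome 2.
CYCB1;1: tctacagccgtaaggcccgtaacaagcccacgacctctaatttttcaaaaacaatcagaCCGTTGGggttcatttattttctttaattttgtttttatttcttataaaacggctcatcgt
CYCB1;2: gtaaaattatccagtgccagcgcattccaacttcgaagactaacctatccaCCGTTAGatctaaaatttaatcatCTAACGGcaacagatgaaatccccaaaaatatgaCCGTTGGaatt
CYCB1;3: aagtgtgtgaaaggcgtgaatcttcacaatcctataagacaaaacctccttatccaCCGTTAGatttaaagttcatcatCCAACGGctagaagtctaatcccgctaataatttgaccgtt
CYCB2;1: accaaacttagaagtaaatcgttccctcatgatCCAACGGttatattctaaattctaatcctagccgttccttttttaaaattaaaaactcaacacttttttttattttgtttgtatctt
CYCB2;3: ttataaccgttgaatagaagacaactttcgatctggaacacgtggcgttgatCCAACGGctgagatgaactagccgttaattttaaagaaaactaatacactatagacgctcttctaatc
CYCB1;2 holds 3 matches in this stretch and 4 in the 250 bases, CYCB1;3 holds 2, and the other stretches hold 1 each. A match in these letters is a description of the sequence and says nothing of which protein bound it.

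CYCB1;2 (CYC1BAT in RefSeq), the cyclin with most matches, was read at 12.5 and 17.4 CPM with IAA, 8.90 and 9.18 CPM with MT, and 8.57 and 10.4 CPM in control. Its log2 fold change against control was 0.65 ± 0.17 (SE; adjusted p = 0.192). CYCB1;1, widely used as a marker of cells about to divide, had 4.50 and 5.84 CPM with IAA, 4.55 and 3.77 CPM with MT, and 3.43 and 4.02 CPM in control (0.47 ± 0.21 SE, adjusted p = 0.477). Both IAA libraries lay above control in each of these 2 cyclins, but in CYCB1;1 IAA replicate 1 was level with MT replicate 1. CYCB1;3 had the largest fold change of the group, 0.98 ± 0.29 (SE; adjusted p = 0.252), at a low level of 2.68 and 3.87 CPM with IAA against 1.40 and 1.92 CPM in control. CYCB2;3 had 7.37 and 9.04 CPM with IAA, 6.27 and 7.63 CPM with MT, and 5.56 and 5.10 CPM in control (0.62 ± 0.17 SE, adjusted p = 0.214), and it shares 97.3% identity over 583 bases with AT1G20590. CYCB2;1 had 1.56 and 1.14 CPM with IAA, 1.44 and 1.42 CPM with MT, and 0.996 and 1.16 CPM in control, so the IAA and control libraries overlapped. It had the smallest fold change among these cyclins, 0.33 ± 0.34 (SE), and was the 1 member of the 28 with a negative one against MT, -0.08 ± 0.33 (SE).

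CDC20.1 switches on the ubiquitin ligase that lets chromosomes part in mitosis, and it came nearest to the threshold. It was read at 23.1 and 25.9 CPM with IAA, 18.5 and 15.6 CPM with MT, and 15.4 and 16.5 CPM in control. Its log2 fold change was 0.62 ± 0.12 (SE; adjusted p = 0.061), and it passed with DESeq2 (adjusted p = 0.00136) and with no filter on low counts (adjusted p = 0.0255). Over the 14 alternatives its adjusted p ran from 0.00136 to 0.467. CDC20.1 and CDC20.2 are 97% identical over 1366 bases, so their counts may be split between them. KNOLLE (SYP111), the syntaxin of the cell plate in cytokinesis, had 17.9 and 25.5 CPM with IAA against 15.4 and 14.5 CPM in control (0.54 ± 0.16 SE, adjusted p = 0.24). TPX2 (AT1G03780), a spindle assembly factor, had 11.4 and 15.4 CPM with IAA against 7.03 and 9.31 CPM in control (0.71 ± 0.22 SE, adjusted p = 0.261). In KNOLLE and TPX2, as in CYCB1;2, IAA replicate 2 was well above IAA replicate 1. KNOLLE overlaps AT1G08550 over 464 bases and TPX2 overlaps AT1G03770 over 163 bases, both on the other strand.

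**Figure D3:**
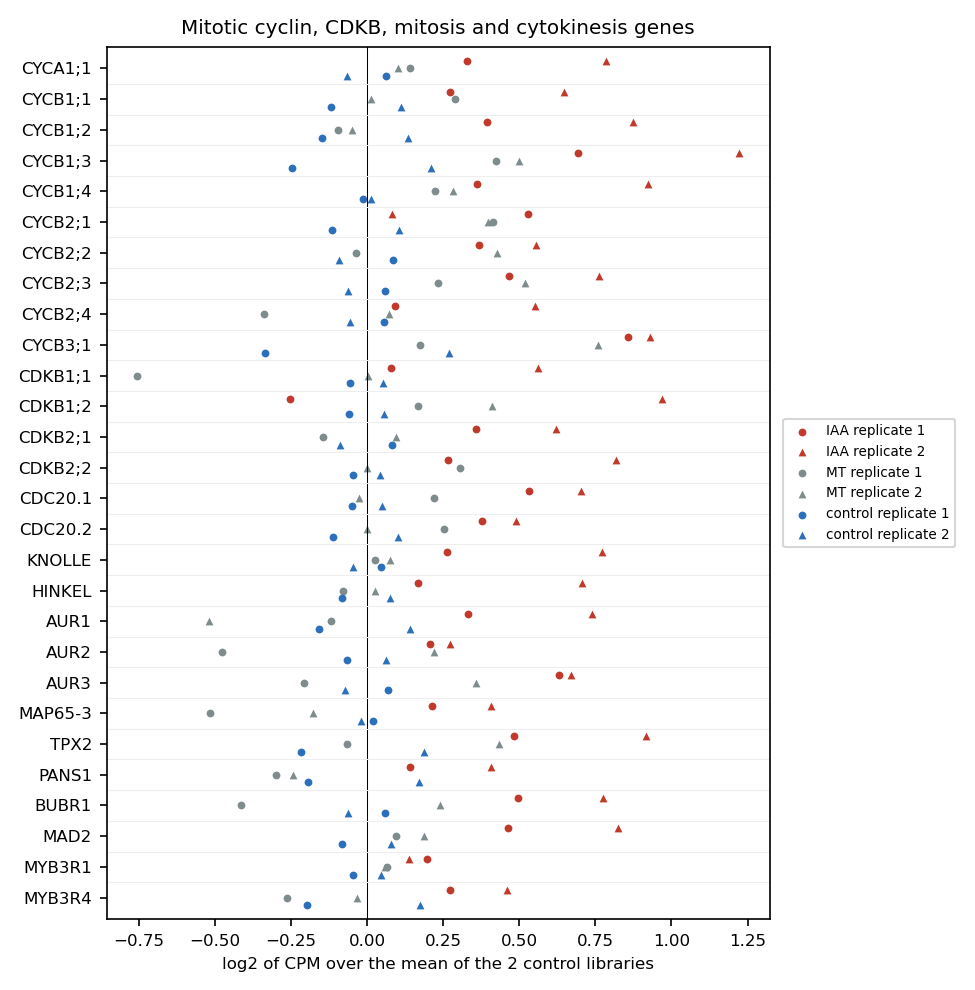
Level of the 28 mitotic cyclin, B-type CDK, mitosis and cytokinesis genes in each library, as log2 of CPM over the mean of the 2 control libraries; IAA in red, MT in grey and control in blue, with circles for replicate 1 and triangles for replicate 2. IAA points lie right of the control points in 25 rows, and the IAA triangle lies right of the IAA circle in 26 rows.

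That order of the 2 IAA libraries ran through the whole group. IAA replicate 2 was above IAA replicate 1 in 26 of the 28 genes, where 50.3% of all genes tested showed this order. Summed over the 28 genes, levels were 244 and 300.2 CPM with IAA, 194 and 209 CPM with MT, and 189 and 202 CPM in control. Without IAA replicate 2 the median was 0.34 and 27 genes were positive; without IAA replicate 1 it was 0.69 and all 28 were positive. The root marker sums had the same order in the IAA libraries as the division genes, with 22.5 CPM in replicate 2 against 16.5 CPM in replicate 1 for root hair and 25.5 against 23.3 CPM for endodermis. Replicate 2 was also the higher control library for these 2 sums and for the division genes, and in MT replicate 1 was the higher for both root sums and the lower for the division genes. The part of root RNA in the difference between IAA and control was not tested.

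Genes of DNA replication had smaller positive differences, all 16 of them. The tested members, among them the MCM helicase subunits and the sliding clamps PCNA1 and PCNA2, had a median log2 fold change of 0.27 against control and 0.28 against MT, with MT against control at -0.03. None was called in either comparison by edgeR's test, 7 had an unadjusted p under 0.05 in each, and DESeq2 called 0 against control and 1 against MT. TSO2, the small subunit of ribonucleotide reductase, had 48.2 and 54.3 CPM with IAA, 40.7 and 38.2 CPM with MT, and 40.4 and 43.3 CPM in control (0.29 ± 0.08 SE, adjusted p = 0.243). In 11 of the 16 the IAA libraries lay above those of control, where 23.5% of all genes tested did, and in 13 above those of MT, where 20.4% did. IAA replicate 2 was above IAA replicate 1 in 15 of the 16. The median against control was 0.14 without IAA replicate 2 and 0.16 without control replicate 1.

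Regulators of the cycle had smaller medians. The 9 tested genes of CDKA and of the D-type cyclins, its partners at entry into the cycle, had a median of 0.15, with 3 at an unadjusted p under 0.05; the median was 0.09 without control replicate 1 and 0.24 without IAA replicate 1. CYCD1;1 was read at 18.2 and 25.9 CPM with IAA against 15.2 and 15.2 CPM in control (0.53 ± 0.15 SE, adjusted p = 0.243), CYCD3;1 had a fold change of 0.27 ± 0.11 (SE; adjusted p = 0.437), and CDKA;1 was level at 40.4 and 38.3 CPM with IAA against 38.98 and 39.95 CPM in control. The 12 CDK inhibitors had a median of 0.05 (-0.07 without IAA replicate 1 and 0.01 without IAA replicate 2), with 6 positive and 6 negative; LGO (SMR1), an inhibitor that acts in endoreduplication, had the lowest p, at 24.1 and 20.05 CPM with IAA against 28.9 and 28.4 CPM in control (-0.37 ± 0.10 SE, adjusted p = 0.223). The 9 genes of growth-regulating factors and their partners had a median of 0.15, and in all 9 IAA replicate 2 was above IAA replicate 1. Their median was -0.16 without IAA replicate 2, 0.37 without IAA replicate 1 and 0.09 with limma-voom, so its sign rests on that library. None of these 3 lists had a member called by edgeR's test or by DESeq2, and 3, 2 and 1 of their members had an unadjusted p under 0.05.

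The clearest difference between IAA and both other groups was in VSP2. This gene, which codes for a vegetative storage protein and acid phosphatase and is long used as a readout of jasmonate in leaves, was read at 38.6 and 35.5 CPM with IAA, 13.7 and 12.1 CPM with MT, and 15 and 14.5 CPM in control. It rose by a log2 fold change of 1.33 ± 0.10 against control (SE; adjusted p = 0.00445) and was higher than with MT by 1.52 (adjusted p = 0.00423). Both IAA values were far above those of the other 4 libraries, which lay close together. VSP1, its relative, had 8.03 and 6.27 CPM with IAA, 4.63 and 2.67 CPM with MT, and 3.07 and 3.56 CPM in control, a log2 fold change of 1.11 ± 0.27 that did not pass (SE; adjusted p = 0.151). Of the 8 alternatives other than leaving out 1 library, VSP1 passed in 1. VSP1 and VSP2 share 90.2% identity over a stretch of 368 bases. VSP2 passed against control in all 6 fits that left out 1 library and in all 8 other settings; against MT it failed only without IAA replicate 1.

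No other jasmonate output passed in the main fit. Of the 11 on the list, 9 were tested and VSP2 alone was called by edgeR's test, against a background of 0.583%; DESeq2 called 2 higher. CORI3, a cystine lyase induced by coronatine, had 31.1 and 25.7 CPM with IAA against 17.3 and 23.7 CPM in control (0.47 ± 0.15 SE, adjusted p = 0.298). JR1 and CLH1 had fold changes of 0.07 ± 0.11 and 0.11 ± 0.15 (SE). The list's median was 1.11, but 3 of its members are the defensin genes PDF1.2A, PDF1.2B and PDF1.2C, which were at 0.0383 to 1.02 CPM in the IAA and control libraries. The median was 0.31 without IAA replicate 1, 1.70 without control replicate 1 and 0.47 when genes under 1 CPM were left out. CACGTG, the G-box that MYC2 and its relatives bind, was in 0 of the 9 promoters (250 bases, both strands) and in 7.37% of all promoters of genes tested. At that share 9 promoters are too few for a 0 to be read as a lack.

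Of 12 tested genes of jasmonate synthesis 3 rose, against the background of 0.583%. DESeq2 called 4 higher. Against MT none was called by edgeR's test, and DESeq2 called 1 higher and 1 lower. LOX2, the plastid lipoxygenase that starts jasmonate synthesis in leaves, was read at 103.9 and 97.8 CPM with IAA, 63.6 and 74.1 CPM with MT, and 55.7 and 57.7 CPM in control (0.83 ± 0.08 SE, adjusted p = 0.00731). Both IAA libraries lay above all others, and the difference from MT was 0.55 ± 0.08 (SE; adjusted p = 0.175). LOX4, another lipoxygenase, had 10.9 and 9.89 CPM with IAA, 14.3 and 17.7 CPM with MT, and 4.75 and 4.74 CPM in control (1.13 ± 0.14 SE, adjusted p = 0.0187). DLAH, an acylhydrolase related to the lipases of jasmonate synthesis, had 4.10 and 4.77 CPM with IAA, 9.67 and 6.46 CPM with MT, and 0.46 and 0.738 CPM in control (2.89 ± 0.31 SE, adjusted p = 0.00912). In LOX4 and DLAH the MT libraries lay above those of IAA, unlike in LOX2. The next enzymes of the pathway, AOS, the AOC genes and OPR3, had none called; AOS was at 110 and 105.5 CPM with IAA against 99.2 and 106.6 CPM in control.

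Of the jasmonate signalling genes MYC2 and JAZ1 rose, against the background of 0.583% of genes tested called higher. MYC2, the leading transcription factor of the jasmonate response, had 80.8 and 88.0 CPM with IAA, 94.6 and 96.0 CPM with MT, and 36.4 and 49.0 CPM in control (0.98 ± 0.12 SE, adjusted p = 0.0187). MYC2 overlaps AT1G32630, on the other strand, over 3241 bases. Its relatives MYC3 and MYC4 had fold changes of 0.01 ± 0.08 and -0.09 ± 0.10 (SE). JAZ1 was the 1 called of 11 tested JAZ repressors (DESeq2 called 2), with 44.7 and 47.1 CPM with IAA, 52.2 and 55.1 CPM with MT, and 15.6 and 25.4 CPM in control (1.16 ± 0.18 SE, adjusted p = 0.0345). The JAZ list had a median of -0.05, between -0.10 and -0.01 over the 14 alternatives. The 7 tested genes of jasmonate breakdown had a median of -0.23 (-0.10 without IAA replicate 2 and -0.11 without control replicate 1), with none called by either tool and none at an unadjusted p under 0.05. LOX2, LOX4, DLAH, MYC2 and JAZ1 all lost their calls without control replicate 1, and all but LOX2 did so without IAA replicate 2. LOX4, MYC2 and JAZ1 also lost them without IAA replicate 1, LOX4 without control replicate 2, and JAZ1 without either MT library.

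TGG2 was the myrosinase that rose. Of the classical leaf myrosinases, TGG2 was read at 430.3 and 439 CPM with IAA, 249 and 259 CPM with MT, and 249 and 243 CPM in control. It rose by 0.82 ± 0.06 on the log2 scale against control (SE; adjusted p = 0.00445) and was higher than with MT by 0.78 (adjusted p = 0.00546), with MT and control at close levels. TGG1, the more abundant one, was at 2607 and 2585 CPM with IAA, 1955 and 2191 CPM with MT, and 2218 and 2323 CPM in control (0.19 ± 0.07 SE, adjusted p = 0.336), so IAA lay above control without passing the test. TGG2 kept its call against control in all 6 fits that left out 1 library; against MT it failed only without IAA replicate 1.

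None of the other beta-glucosidases on that list of 9 passed against control, where the background of rises was 0.583%. DESeq2 too called 1 of the list against control. Against MT edgeR's test called only TGG2, while DESeq2 called 3 of the list higher and 1 lower. The root myrosinases TGG4 and TGG5 (BGLU34 and BGLU35 in RefSeq, 96.1% identical over 1742 bases) were high in 1 IAA library and low in the other. TGG4 had 0.863 and 11.0 CPM with IAA, 4.98 and 2.29 CPM with MT, and 2.49 and 1.79 CPM in control. BGLU21, a root beta-glucosidase with 91.5% identity to BGLU22 over 1911 bases, had 10.5 and 33.0 CPM with IAA against 5.998 and 12.5 CPM in control. The list's median of 0.67 was 0.44 without control replicate 1, 0.23 with limma-voom and 0.17 without IAA replicate 2, in which the root hair markers summed to 22.5 CPM against 16.5 CPM in IAA replicate 1; the part of root RNA was not tested. PYK10, the main enzyme of endoplasmic reticulum bodies in roots, was at 1577 and 1581 CPM with IAA, 2382 and 1505 CPM with MT, and 1132 and 1596 CPM in control (0.21 ± 0.21 SE), a spread among controls as large as the difference. PEN2 (AT2G44490), an atypical myrosinase of pathogen defence, was at 144 and 118 CPM with IAA against 163 and 157 CPM in control (-0.29 ± 0.09 SE, adjusted p = 0.296).

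Among 17 tested partner proteins and lectins 3 rose, against the background of 0.583%. DESeq2 also called 3 higher against control. Against MT it called 2 higher, where edgeR's test called 1. AT1G52000, a mannose-binding lectin, was read at 29.3 and 26.3 CPM with IAA, 11.1 and 12.7 CPM with MT, and 18.1 and 17.4 CPM in control. It rose by 0.65 ± 0.11 against control (SE; adjusted p = 0.036) and was higher than with MT by 1.23 (adjusted p = 0.00912); the 3 groups did not overlap, with control between IAA and MT. ESP (AT1G54040), the epithiospecifier protein that turns glucosinolate breakdown towards nitriles, had 15.1 and 11.0 CPM with IAA, 8.68 and 6.26 CPM with MT, and 4.60 and 5.96 CPM in control (1.31 ± 0.22 SE, adjusted p = 0.0427). ESM1, which acts against ESP in that choice, had 329 and 344 CPM with IAA, 277 and 278 CPM with MT, and 268 and 250.1 CPM in control (0.38 ± 0.06 SE, adjusted p = 0.0417). ESP and ESM1 were called in none of the 6 fits that left out 1 library, and AT1G52000 in 1 of them, without MT replicate 1. The lectins AT1G52050, AT1G52060 and AT1G52070, neighbours of AT1G52000, were high in IAA replicate 2 alone of the IAA libraries, as TGG4 was. AT1G52070 had 3.65 and 23.1 CPM with IAA, 12.8 and 8.75 CPM with MT, and 2.28 and 3.46 CPM in control.

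**Figure D4:**
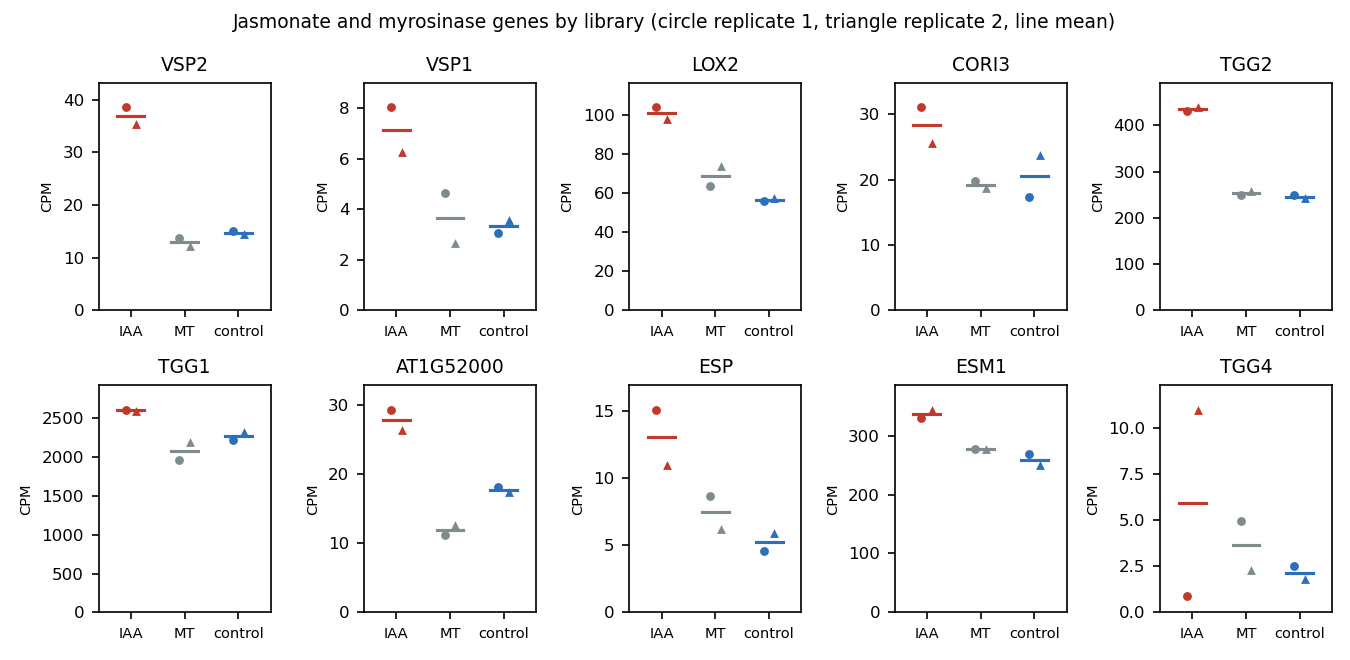
Level in CPM (vertical axes from 0) of 10 jasmonate and myrosinase genes in the IAA, MT and control libraries; circles are replicate 1, triangles replicate 2 and lines the group means. VSP2, TGG2 and AT1G52000 stand above both MT and control with close replicates, while TGG4 is high in IAA replicate 2 and low in IAA replicate 1.

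Genes that make the myrosinases' aliphatic substrates had mostly negative differences. Of 15 genes of aliphatic glucosinolate synthesis 14 had negative fold changes, with a median of -0.27; in 12 the IAA libraries lay below those of control, against 20.2% of all genes tested. None was called by edgeR's test, 8 had an unadjusted p under 0.05, and DESeq2 called 2 lower. IMD1 (IPMDH1), a dehydrogenase of methionine chain elongation, had 175 and 185 CPM with IAA, 159.7 and 192 CPM with MT, and 241 and 220.4 CPM in control (-0.36 ± 0.09 SE, adjusted p = 0.186). The median was -0.41 for MT against the same controls and 0.13 for IAA against MT, where none was called by either tool and 1 had an unadjusted p under 0.05. Of 10 indole glucosinolate genes only the regulator MYB51 passed, rising by 0.94 ± 0.13 (SE; adjusted p = 0.0242), with 14 and 17.7 CPM with IAA, 26.7 and 27.7 CPM with MT, and 8.62 and 7.88 CPM in control. The background of rises was 0.583% of genes tested. MYB51 lost its call without either control library, without IAA replicate 2 and without MT replicate 2.

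Across the genome, the difference between IAA and MT came to 4 genes by edgeR's test. VSP2, TGG2 and AT1G52000 were higher with IAA (0.0141% of genes tested) and MPK3 was lower (0.0047%); 2235 genes had an unadjusted p under 0.05, and DESeq2 called 255. MPK3, a MAP kinase of stress signalling, was read at 90.4 and 89.4 CPM with IAA, 146 and 147 CPM with MT, and 74.7 and 74.5 CPM in control. IAA lay between MT and control, 0.70 below MT on the log2 scale (adjusted p = 0.00735) and 0.27 ± 0.06 above control (SE; adjusted p = 0.104). The count was 0 without IAA replicate 1, 7 without IAA replicate 2, 55 without MT replicate 2 and 5 in each of the other fits that left out 1 library. AT1G52000 also lost its call without MT replicate 1, and MPK3 without IAA replicate 2. IAA was given at 1 nM and MT at 10 nM, so these values are not a comparison at matched dose.

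No early auxin response gene on the lists passed edgeR's test in the IAA seedlings. Of 15 tested Aux/IAA and GH3 genes on the list, classical early targets, none was called by edgeR's test and DESeq2 called 1 lower. Among them 4 had an unadjusted p under 0.05, and fold changes ran from -0.56 to 2.51 on the log2 scale. The IAA libraries lay above control in 4 and below in 3 (23.5% and 20.2% of all genes tested). The median was -0.06, and it was 0.07 without IAA replicate 2, 0.01 without control replicate 1, -0.11 without control replicate 2 and -0.13 without IAA replicate 1. IAA19, an Aux/IAA repressor, had 8.74 and 7.61 CPM with IAA, 8.999 and 6.81 CPM with MT, and 8.14 and 7.63 CPM in control. GH3.3, an enzyme that conjugates IAA to amino acids, had 7.43 and 9.40 CPM with IAA, 7.16 and 9.68 CPM with MT, and 13.2 and 11.5 CPM in control (-0.56 ± 0.18 SE, adjusted p = 0.289). The SAUR genes of cell expansion had 12 of 13 negative fold changes, a median of -0.60 and the IAA libraries below control in 10 (20.2% of all genes tested), with none called by edgeR's test, 7 at an unadjusted p under 0.05 and 3 called lower by DESeq2. SAUR20 had 3.64 and 2.31 CPM with IAA, 3.54 and 3.32 CPM with MT, and 7.72 and 6.66 CPM in control (-1.26 ± 0.24 SE, adjusted p = 0.0616); it shares 90.6% identity with SAUR24 over 490 bases.

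Nutrient genes on the lists were mostly negative. In the nitrate list 7 of 8 genes were negative and NIA1 was the 1 called, against the background of 0.118%, with DESeq2 calling 2. NIA2, the second nitrate reductase, had 1724 and 1586 CPM with IAA, 1719 and 1799 CPM with MT, and 2128 and 1980 CPM in control (-0.31 ± 0.07 SE, adjusted p = 0.103). In the iron deficiency list 13 of 19 were negative, with a median of -0.25 (-0.002 without control replicate 2), and none was called by edgeR's test, 6 had an unadjusted p under 0.05 and DESeq2 called 1 lower. FRO3, a mitochondrial ferric reductase, had 32.3 and 28.4 CPM with IAA, 36.3 and 37.6 CPM with MT, and 39.4 and 40.7 CPM in control (-0.40 ± 0.09 SE, adjusted p = 0.0982). In the flavonoid list the repressor MYBL2 fell and none rose; CHS (TT4 in RefSeq), the first enzyme of the pathway, was at 324 and 305 CPM with IAA against 248 and 309 CPM in control (0.18 ± 0.10 SE, adjusted p = 0.564).

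**Figure D5:**
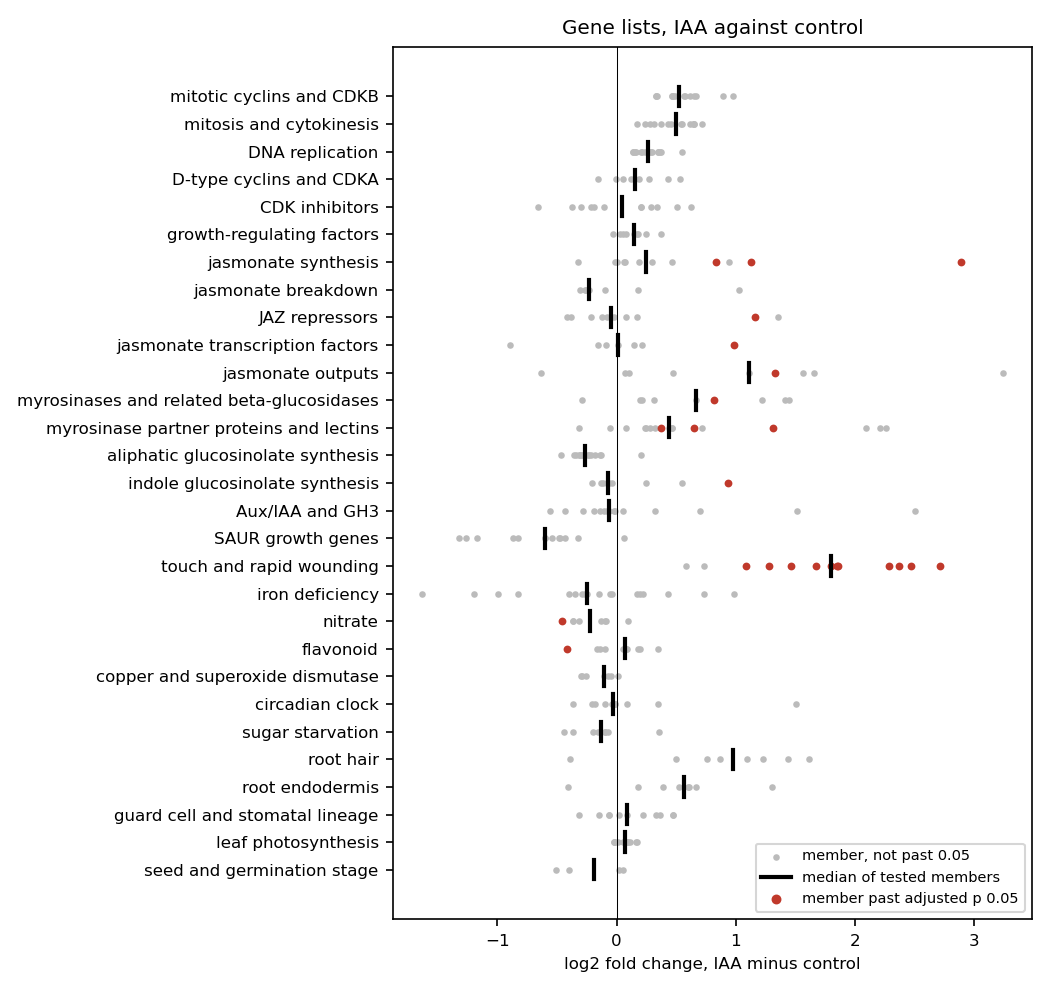
Log2 fold change of IAA minus control (horizontal axis) for the tested members of each gene list; red points passed adjusted p 0.05 over all genes, grey points did not, and black bars are list medians. The 3 lists of mitosis and DNA replication lie wholly right of 0 without a called member, and the SAUR and aliphatic glucosinolate lists lie almost wholly left of it.

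Of 22 listed genes that rose, 11 were touch and rapid wounding genes, out of 13 tested, against the background of 0.583%. This list too was chosen with earlier results of these data known, so nothing is read from that share. DESeq2 called 12 of the 13 higher. The median log2 fold change of the 13 was 1.79, and that of MT against the same controls was 2.02. In 9 of the 13 the IAA libraries lay below those of MT, against 19.8% of all genes tested. WRKY33, a transcription factor of defence, was read at 103.0 and 101.2 CPM with IAA, 143 and 181.4 CPM with MT, and 24.2 and 32.3 CPM in control (1.86 ± 0.15 SE, adjusted p = 0.00445). BCS1, a mitochondrial ATPase gene outside that list and used as a stress marker, had 16.3 and 22.7 CPM with IAA, 33.1 and 32.6 CPM with MT, and 2.89 and 4.47 CPM in control (2.40 ± 0.22 SE, adjusted p = 0.00484). Over all 124 rises, the IAA libraries lay below those of MT in 83 and above them in 20 (19.8% and 20.4% of all genes tested); these genes were picked for high IAA values, and nothing is read from the shares. None of the 13 genes differed between IAA and MT by edgeR's test, 7 had an unadjusted p under 0.05, and DESeq2 called 4 lower with IAA. The lists of copper, clock, sugar starvation, guard cell, root hair, root endodermis, photosynthesis and seed genes had 0 called by edgeR's test against control, with 3, 2, 5, 2, 3, 1, 2 and 0 members at an unadjusted p under 0.05. DESeq2 called 1 copper gene, 2 sugar starvation genes, 1 root hair gene and 1 root endodermis gene, and none in the other 4 lists.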

How the data were processed

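RNA-seq read counts per gene in 6 libraries (2 each of IAA, MT and control seedlings) were taken as deposited by the authors in 1 table. Tools listed in the submitters' processing notes are HTSeq 0.6.1, TopHat2 2.0.12, Bowtie2 2.2.3 and DESeq; what each was used for is not recorded there. Not given in the sources used here are the strand setting, library kit, gene annotation and genome build. Each column of the table was matched to a sample by the treatment and replicate number in its name, and the control columns by group and replicate number, since their 72 h differs from the 7 d of the titles.

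From the counts, genes were filtered with edgeR's filterByExpr by group (minimum count 10, minimum total 15), which removed 6711 of 27978 rows. The table holds 562 rows of the authors' new genes. Of the other 27416 locus codes, 26719 matched the RefSeq annotation of TAIR10.1, which gave symbols, products, overlaps and promoters. Near copies are transcripts with at least 90% identity over at least 200 bases. CPM values are counts scaled by TMM-normalised library size. The test was edgeR's quasi-likelihood test (edgeR 4.0.16, limma 3.58.1, R 4.3.3) in 1 fit of all 6 libraries, with Benjamini-Hochberg adjustment over 21267 genes and a threshold of 0.05. The fit had 3 residual degrees of freedom and 5.61 from the prior, and its common coefficient of biological variation was 0.123. The scripts were tested on simulated data. Libraries held 40087221 to 65558371 counts, so genes below about 1 CPM rest on few reads and are the least precise.

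The members and the 29 gene lists (325 members, 316 tested) were chosen with earlier results of these data known. The lists are therefore described by counts and medians with no test of their own. A list's share of called or non-overlapping members, set beside that of all genes tested, is a description and no test. Named genes are every fall past the threshold with a mean of at least 1 CPM and groups that do not overlap, the 15 largest rises, up to 4 called members per list (the lowest p where none was called), a few set genes, and every gene called between IAA and MT. Other list members given with values were chosen after their values were seen.

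Alternatives were other normalisations, other filters, DESeq2 1.42.0, limma-voom, a fit of the 4 compared libraries, a replicate block, and leaving out each library in turn. No label says that equal replicate numbers mark shared cultures or batches.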

Additional observations from a re-analysis of the deposited data

How the results depend on the processing

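The counts of calls depend on the tool, the filter and single libraries. Against control, 149 genes were called, 124 higher and 25 lower, and 4 were called against MT. With DESeq2 these were 475, 327, 148 and 255; with no filter beyond a total count above 0 they were 268, 202, 66 and 13. With only the 4 compared libraries fitted they were 81, 66 and 15 against control and 5 against MT. Leaving out each library in turn gave 17 to 109 called, 17 to 98 higher, 0 to 19 lower, and 0 to 55 called against MT. The lowest counts against control came without control replicate 1, and the lowest against MT without IAA replicate 1. The cause was not tested, beyond the smaller number of libraries. Other normalisations, the filter of 1 CPM in 2 libraries and limma-voom kept all 4 counts within 1.5 times. The labels do not say whether replicate numbers pair the libraries. A fit with the replicate block called 137 against control (109 higher and 28 lower, with 113 of the 149 kept) and 5 against MT. The differences between replicates 1 and 2 correlated across genes at r = 0.0328 for control and IAA, -0.149 for control and MT, and 0.0119 for IAA and MT. These values cannot show whether libraries shared a culture or batch. Over named genes, both comparisons and the 14 alternatives, 1922 values kept their side of the threshold, 244 lost it and 46 gained it. No value past the threshold in the main fit or the alternative changed direction, while some that passed in neither did. Depth limits the genes below about 1 CPM, such as the PDF1.2 genes.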

Other observations

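The following 7 genes outside the lists rose with IAA and were chosen after their values were seen; other genes of the same functions were not counted, so they stand for no group. PME5, a pectin methylesterase gene, was read at 51.2 and 42.8 CPM with IAA, 29.1 and 31.3 CPM with MT, and 23.2 and 22.6 CPM in control (log2 fold change against control 1.04 ± 0.10 SE, adjusted p = 0.00683). AT1G10640, annotated as pectin lyase-like, had 55.6 and 56.5 CPM with IAA, 41.3 and 41.7 CPM with MT, and 38.0 and 35.9 CPM in control (0.60 ± 0.07 SE, adjusted p = 0.0136). PEL3, an acyltransferase needed for a tight cuticle, had 90.3 and 83.4 CPM with IAA, 59.5 and 61.9 CPM with MT, and 65.8 and 54.7 CPM in control (0.53 ± 0.09 SE, adjusted p = 0.0494). In these 3 genes both IAA libraries lay above all others, although none passed against MT (adjusted p of 0.189 for PME5 and AT1G10640 and 0.208 for PEL3). The arabinogalactan protein gene AGP1 rose as well, with 40.8 and 48.5 CPM with IAA, 51.9 and 64.5 CPM with MT, and 15.3 and 23.8 CPM in control (1.19 ± 0.20 SE, adjusted p = 0.0382), but there the MT libraries were the highest.

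The other 3 genes act on abscisic acid, a hormone of water stress. NCED3, the rate-limiting enzyme of its synthesis in stressed leaves, had 37.0 and 48.4 CPM with IAA, 44.7 and 65.1 CPM with MT, and 17.8 and 21.1 CPM in control (1.13 ± 0.19 SE, adjusted p = 0.0417). CYP707A3, which breaks the hormone down, had 10.6 and 13.8 CPM with IAA, 22.7 and 22.1 CPM with MT, and 3.78 and 4.28 CPM in control (1.59 ± 0.15 SE, adjusted p = 0.00658). PP2CA, a phosphatase that holds back its signalling, had 269 and 296 CPM with IAA, 313 and 357 CPM with MT, and 148 and 166 CPM in control (0.85 ± 0.09 SE, adjusted p = 0.00912). In these 3 genes both IAA libraries lay above both control libraries, and in CYP707A3 and PP2CA both MT libraries lay above those of IAA.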
